A study of Mus musculus with 38 samples.

Results

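The striata of 9 XXY males were set against those of 9 XX females, 18 of the 38 animals of a series on a mouse model of Klinefelter syndrome. The members were chosen by their sample codes, which begin with XXYSry in the XXY males and with XX alone in the XX females. XXY males are labelled male and carry 2 X chromosomes and a Y chromosome. XX females are labelled female and carry 2 X chromosomes, with no Sry in their codes. Both groups are MF1 mice aged 152 days, and the labels call the animals of a group biological replicates. The labels do not say how Sry, the testis-determining gene, is carried in the XXY males, nor give hormone levels. Y chromosome, Sry and gonadal sex differ together between these groups and cannot be told apart in this comparison, while the number of X chromosomes is the same. XY males (11 animals with a signal column) and XX males (8 animals), whose codes also name Sry, are used here for the levels of single probes and to estimate the array effects.

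In cells with more than a single X chromosome, Xist RNA coats the extra copies and silences most of their genes, and a minority of X-linked genes escape and remain active from the silenced copy. Mice that share their number of X chromosomes but differ in Y chromosome and gonads therefore bear on what Y-linked genes and gonadal hormones do. The striatum is built mainly of GABAergic projection neurons of the direct pathway, which express the dopamine receptor Drd1, and of the indirect pathway, which express Drd2. Sex steroids act on these circuits through nuclear receptors and through membrane receptors.

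RNA was hybridised to Illumina bead arrays of 25697 probes, and levels below are normalized log2 intensities. Of these probes 12339 were detected in enough animals to be kept, and they made 9455 features: the brightest probe of each of 8444 named genes, and 1011 probes that the annotation does not name. As a check of the tissue, all 17 measured genes shared by the striatal projection neuron types were detected in all 18 animals. XXY arrays held between 10089 and 11767 detected probes, and XX female arrays between 11086 and 12329. The 90th percentile of raw signal was 721 to 1430 in XXY males and 1410 to 2210 in XX females. Sample codes end in the letter a, b or both, and the letters marked array brightness. Of the XXY males 2 carried letter a, 6 both letters and 1 letter b, whereas all 9 XX females carried letter b. The model therefore held the share of letter b (the run term) beside the labelled batch, which was balanced, with 5 animals of each group in batch 1 and 4 in batch 2. XX females hold no other letter, so the run term was estimated from XXY and XY males alone, and it widened the standard error of the comparison 1.32 times. All XXY and XY males with letter b alone were in batch 2. Differences within batch 1 therefore extend the run term beyond the letters that its males carry.

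A pair of arrays stood apart from the rest. XXY male replicate 5 had a residual SD of 0.764 log2 units, against 0.242 to 0.53 in the other XXY males. XX female replicate 7 had one of 0.714, against 0.25 to 0.459 in the other XX females. They come from different groups, batches and letters, yet their residuals correlated at 0.871 across features. Where leaving out both ended a call or turned the sign of a list's median, the value without them is given beside the result. Leaving out XX female replicate 7 alone turned the sign of 9 of 24 list medians, which are not given here, and of Xist, which is.

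Few features separated the groups. Adjusting over all 9455 features (limma, Benjamini-Hochberg), 4 probes rose in XXY males (0.0423% of features) and 0 fell. At an unadjusted p below 0.05, 220 features (2.33%) had a positive difference in XXY males and 167 (1.77%) a negative one. The median absolute difference over all features was 0.145 log2 units, and the median standard error was 0.20. All 4 probes that rose are unnamed in the annotation, so no gene, position or role is given for them, and they are described by their levels in every group of animals.

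ILMN_1241001 lay at 6.94, 7.44 and 8.24 in XXY males (lowest, median and highest), against 4.56, 4.58 and 4.70 in XX females. Detection was in 9 of 9 XXY males and 0 of 9 XX females (Fisher's exact test, two-sided, p = 4.11e-05), and the groups did not overlap. The probe was called from these same animals and kept through the groups where it is high, so this test is no separate support. The mean was 7.52 ± 0.39 in XXY males and 4.60 ± 0.04 in XX females (SD, n = 9 each), which is at least 3.98-fold higher in XXY males once the detection floor stands in for the XX females. The model gave a log2 difference of 2.43 (SE 0.16, adjusted p = 7.27e-13), with 3.01 in batch 1 and 2.22 in batch 2. Without the run term the difference was 2.92 (adjusted p = 2.96e-16). XY males averaged 7.43 ± 0.55 (SD, n = 11) on this probe, and XX males, none of which had it detected, averaged 4.61 ± 0.10 (SD, n = 8). The probe was thus high in the groups with a Y chromosome and at background in those without.

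ILMN_2899599 lay at 9.97, 10.25 and 11.5 in XXY males, against 6.06, 7.42 and 8.41 in XX females. It was detected in all 18 animals, but the lowest XXY male stood above the highest XX female. The mean was 10.35 ± 0.47 in XXY males and 7.18 ± 0.81 in XX females (SD, n = 9 each). The model difference was 3.34 log2 units (SE 0.36, 95% interval 2.61 to 4.06, 10.1-fold, adjusted p = 2.51e-07). It was 4.35 in batch 1 and 2.69 in batch 2, with adjusted p-values of 0.00858 and 0.0161 in each batch alone. Without XXY male replicate 5, the highest animal, batch 1 gave 3.74 and did not pass (adjusted p = 0.073), and with the 18 arrays normalized and fitted alone the call was also lost (adjusted p = 0.0548). XY males averaged 10.4 ± 0.33 (SD, n = 11), at the XXY level, and XX males averaged 5.60 ± 0.68 (SD, n = 8) with 3 of 8 detected. This second probe also followed the Y chromosome across the 4 groups, with a signal above background in XX females.

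ILMN_2993661 followed another pattern. It lay at 5.05, 5.69 and 6.19 in XXY males, against 4.56, 4.63 and 4.91 in XX females, with no overlap. The mean was 5.70 ± 0.34 in XXY males and 4.68 ± 0.12 in XX females (SD, n = 9 each). Without the run term the difference was 1.03 (adjusted p = 0.00578). The run term therefore added to the model difference, which was 1.47 (SE 0.21, adjusted p = 0.000164). It was 1.67 in batch 1 and 1.43 in batch 2 and passed in neither batch alone (adjusted p = 1 and 0.077), and over the alternatives it ranged from 0.50 to 1.67. Detection was in 3 of 9 XXY males and 0 of 9 XX females, a difference that Fisher's exact test did not separate (two-sided p = 0.206), and the detection floor allows only at least 1.13-fold. XY males averaged 5.75 ± 0.51 (SD, n = 11) and XX males 5.70 ± 0.48 (SD, n = 8), so all 3 groups labelled male lay near one level and XX females below it. Detection was in 7 of 11 XY males and 4 of 8 XX males. The probe was called from these same animals and kept only through the male groups, so this pattern is no separate support. XX males minus XX females gave 1.80 (adjusted p = 0.00522), though letter and group cannot be told apart there, since all XX males carry letter a.

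ILMN_3159435 was the least secure of the 4. It lay at 6.60, 7.12 and 7.62 in XXY males, against 5.45, 6.14 and 7.08 in XX females, and the groups overlapped. The mean was 7.13 ± 0.29 in XXY males and 6.08 ± 0.55 in XX females (SD, n = 9 each). All 9 XXY males lay above the XX female mean, and the model difference was 1.50 (SE 0.29, adjusted p = 0.0237). Detection was in 9 of 9 XXY males and 7 of 9 XX females. XY males averaged 5.40 ± 0.69 (SD, n = 11) and XX males 5.92 ± 0.47 (SD, n = 8). By group means this probe was highest in XXY males rather than in all animals with a Y chromosome or all males. XXY males minus XY males gave 1.78 (adjusted p = 3.23e-06), while XY males minus XX females gave -0.28 (adjusted p = 0.891). XXY males minus XX males gave 0.85 and did not pass (adjusted p = 0.689), so the 2 were not separated. Without XXY male replicate 5 the difference from XX females was 1.44 (adjusted p = 0.0908), and without both arrays that stand apart it was 1.33 (adjusted p = 0.389). Leaving out XX female replicate 6, 7 or 8 also ended the call, with adjusted p-values of 0.055, 0.106 and 0.118, and so did omitting the run term (1.05, adjusted p = 0.0657).

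**Figure D1:**
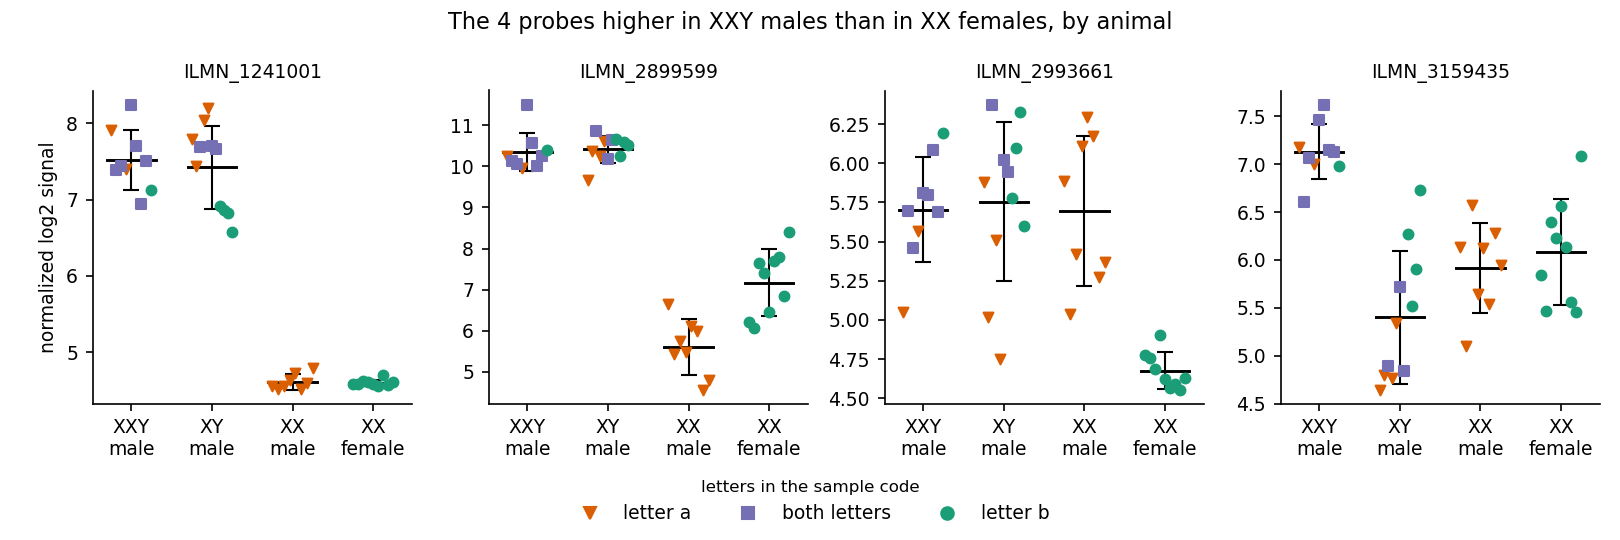
Normalized log2 level of the 4 probes that rose, 1 panel a probe, with 1 point an animal in XXY males, XY males, XX males and XX females from left to right. Point style shows the letters in the sample code and bars give mean and SD. ILMN_1241001 and ILMN_2899599 are high in XXY and XY males, and ILMN_3159435 overlaps between XXY males and XX females.

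**Figure D2:**
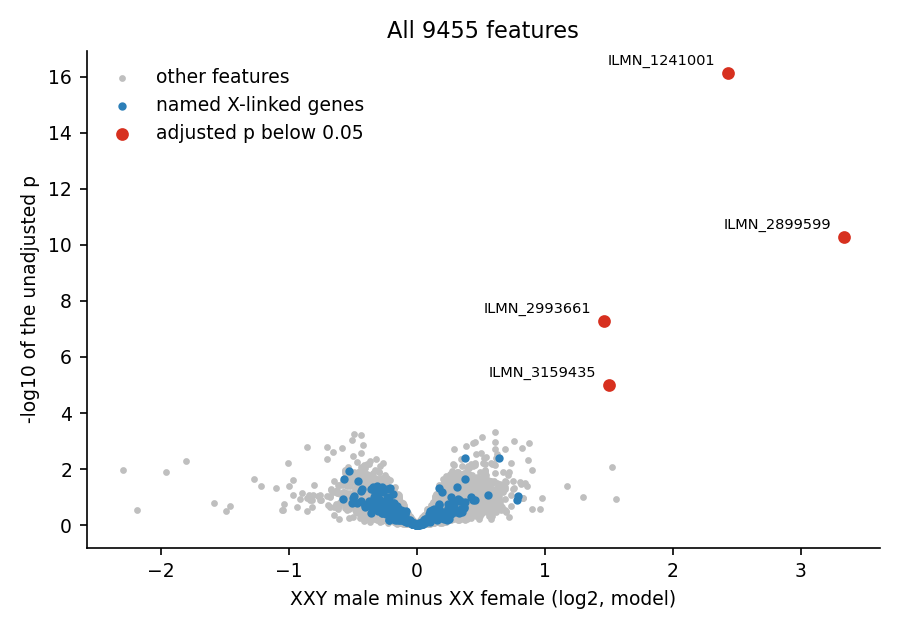
Model difference, XXY males minus XX females in log2 units, against -log10 of the unadjusted p for all 9455 features, with named X-linked genes in blue. The 4 probes past the adjusted threshold all lie on the positive side.

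X-linked genes were examined next, because both groups carry 2 X chromosomes. Of 285 named X-linked genes 129 had a positive difference, with a median of -0.03 log2 units, beside 4263 of 8155 autosomal genes with a median of 0.01. At an unadjusted p below 0.05, 5 X-linked genes were on the positive side and 7 on the negative side, beside the 2.33% and 1.77% of all features given above, and none passed over all features. Xist, the RNA that coats the inactive X, lay at 5.93, 8.17 and 9.31 in XXY males, against 6.19, 8.05 and 9.03 in XX females. It was detected in all 18 animals and the ranges overlapped almost fully. The model difference was 0.25 (SE 0.45, 95% interval -0.67 to 1.16), an interval that does not exclude a change of either sign. It was 0.65 without XXY male replicate 5, -0.06 without XX female replicate 7 and 0.35 without both.

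Of the 9 measured genes on the list of escape genes, Xist included, 2 had a positive difference and the list's median was -0.14, beside 0.01 over all features. Without the run term 4 of 9 were positive, with a median of -0.03. Batch 1 also gave 4 of 9 (median -0.01), as did the 18 animals fitted alone (median -0.08). Eif2s3x, which encodes a subunit of translation initiation factor eIF2, lay at 9.64, 10.00 and 10.16 in XXY males, against 10.02, 10.13 and 10.42 in XX females. The groups overlapped, although all 9 XXY males lay below the XX female mean. The difference was -0.12 (SE 0.11, 95% interval -0.34 to 0.10), and -0.05 without the arrays that stand apart. The same gene was higher in XXY males than in XY males by 0.58 (SE 0.08, adjusted p = 5.14e-05). Kdm6a, a histone H3K27 demethylase, lay at 8.97, 9.32 and 9.45 in XXY males, against 9.05, 9.15 and 10.15 in XX females. Its model difference of -0.26 (SE 0.14, 95% interval -0.55 to 0.02) did not pass, and without the run term it was -0.03. The helicase gene Ddx3x gave -0.17 (SE 0.27), Pbdc1 -0.16, Car5b, a mitochondrial carbonic anhydrase, -0.13, Mmgt1 -0.22 (-0.07 without the arrays that stand apart) and Syap1 -0.14. Bgn, which encodes the matrix proteoglycan biglycan, gave 0.56 (95% interval -0.08 to 1.20).

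Uty was the only named Y-linked gene among the features. It was detected in 3 of 9 XXY males and 5 of 9 XX females, and its difference was 0.25 (SE 0.18). Its levels of 5.28 to 6.36 in XXY males and 4.96 to 6.12 in XX females overlapped, so this probe did not mark the Y chromosome. Erdr1, a pseudoautosomal gene, lay at a mean of 8.90 ± 0.78 in XXY males and 8.83 ± 1.07 in XX females (SD, n = 9 each). Its model difference was 0.78 (SE 0.50), with opposite signs in the labelled batches, -0.74 in batch 1 and 1.04 in batch 2.

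**Figure D3:**
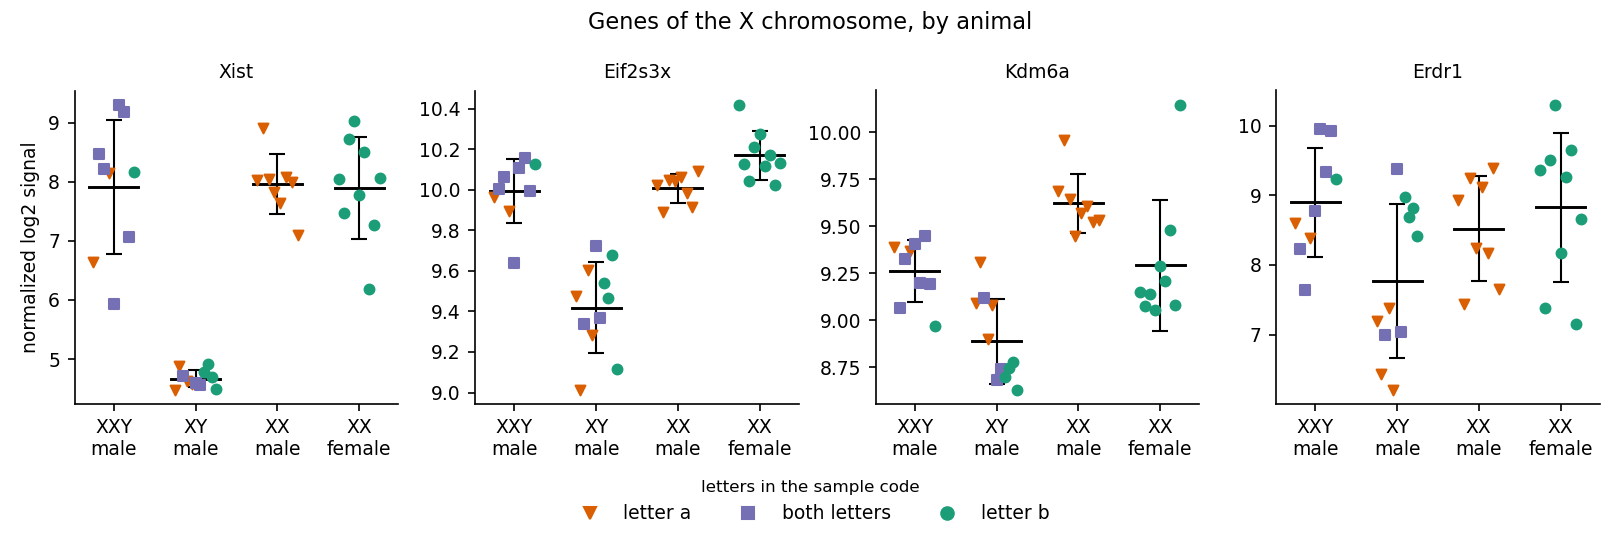
Normalized log2 level of Xist, Eif2s3x, Kdm6a and Erdr1, 1 panel a gene, with 1 point an animal in XXY males, XY males, XX males and XX females from left to right, and bars giving mean and SD. XXY males and XX females overlap in every panel.

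No named gene passed the threshold. The 24 named genes with the smallest p, 12 in each direction, had adjusted p-values from 0.785 to 0.924, their groups all overlapped and none was X-linked. They were chosen by their p in these animals, so they are given as values only. Without the run term 18 of the 24 kept their sign. The run term itself passed for 12 of the 24, beside 662 features higher and 582 lower with letter b among all 9455. Of these genes 8 had other kept probes, and all 10 of those probes had the sign of the kept one, though not always its size. Those probes were measured on the same arrays, so their signs are no separate support.

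On the positive side, Agrn, which encodes the proteoglycan agrin, lay at 11.17, 11.45 and 11.84 in XXY males, against 11.00, 11.22 and 11.38 in XX females, and its model difference was 0.45 (SE 0.13). Ptprs, a receptor tyrosine phosphatase that binds proteoglycans at synapses, gave 0.44 (SE 0.12). The clustered protocadherins Pcdhb3 and Pcdhb12, adhesion proteins that neurons express in combinations, gave 0.69 (SE 0.21) and 0.50 (SE 0.16). Megf11, a transmembrane protein with EGF-like repeats, lay at 5.58, 6.32 and 6.58 in XXY males, against 5.02, 5.47 and 6.27 in XX females. All 9 XXY males were above the XX female mean, with a model difference of 0.76 (SE 0.21). Sult2b1, a sulfotransferase of cholesterol and related steroids, gave 0.83 (SE 0.24), and the cytochrome P450 gene Cyp2s1 gave 0.61 (SE 0.18). Plppr3 at 0.61, Fam222a at 0.63, Lrrfip1 at 0.51, the ubiquitin ligase gene Wwp2 at 0.38 and Haghl at 0.29 completed the 12. Raw group means of Lrrfip1 and Fam222a differed by -0.05 and -0.01, those of Wwp2 by 0.02, of Ptprs by 0.13 and of Plppr3 by 0.16, so much of these model differences comes from the run term. Plppr3 was detected in 2 of 9 XXY males and 5 of 9 XX females, and Fam222a in 2 of 9 XXY males and 8 of 9 XX females. Megf11 was detected in 7 of 9 XXY males and 5 of 9 XX females, and Pcdhb12 in 9 of 9 XXY males and 6 of 9 XX females.

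On the negative side, Eif4ebp1, whose product 4E-BP1 holds back cap-dependent translation, lay at 6.60, 6.86 and 7.44 in XXY males, against 7.13, 7.53 and 7.66 in XX females. In XXY males 8 of 9 values were below the XX female mean. The difference was -0.49 (SE 0.13, adjusted p = 0.785), and it passed without the run term (-0.47, adjusted p = 0.0373). Noct, which encodes nocturnin, a rhythmic phosphatase, had the largest difference by size of the 24. It lay at 6.86, 7.18 and 10.22 in XXY males, against 6.79, 9.43 and 10.58 in XX females, and the groups overlapped over nearly their whole range. Its difference was -1.80 (SE 0.60, adjusted p = 0.924), with -3.03 in batch 1 and -1.22 in batch 2. Without XX female replicate 1, the lowest of its group, it was -1.99 (adjusted p = 0.936). Another kept probe of Noct gave -0.08 (SE 0.19). Id2, an inhibitor of basic helix-loop-helix transcription factors, gave -0.86 (SE 0.25), and Trp53inp1, a stress protein induced by p53, gave -0.50 (SE 0.16) with all 9 XXY males below the XX female mean. Scrg1 gave -0.43 (SE 0.12) and the tetraspanin gene Tspan12 -0.42 (SE 0.12). Tmem184c gave -0.70. Ptges3, an Hsp90 co-chaperone found in steroid receptor complexes, gave -0.50 (SE 0.14), although its raw mean was higher in XXY males by 0.21. Mak16, Ipp and Ikzf5, at -0.43, -0.37 and -0.47, likewise had raw means of the opposite sign, and Ino80c, a subunit of a chromatin remodelling complex, gave -0.27.

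**Figure D4:**
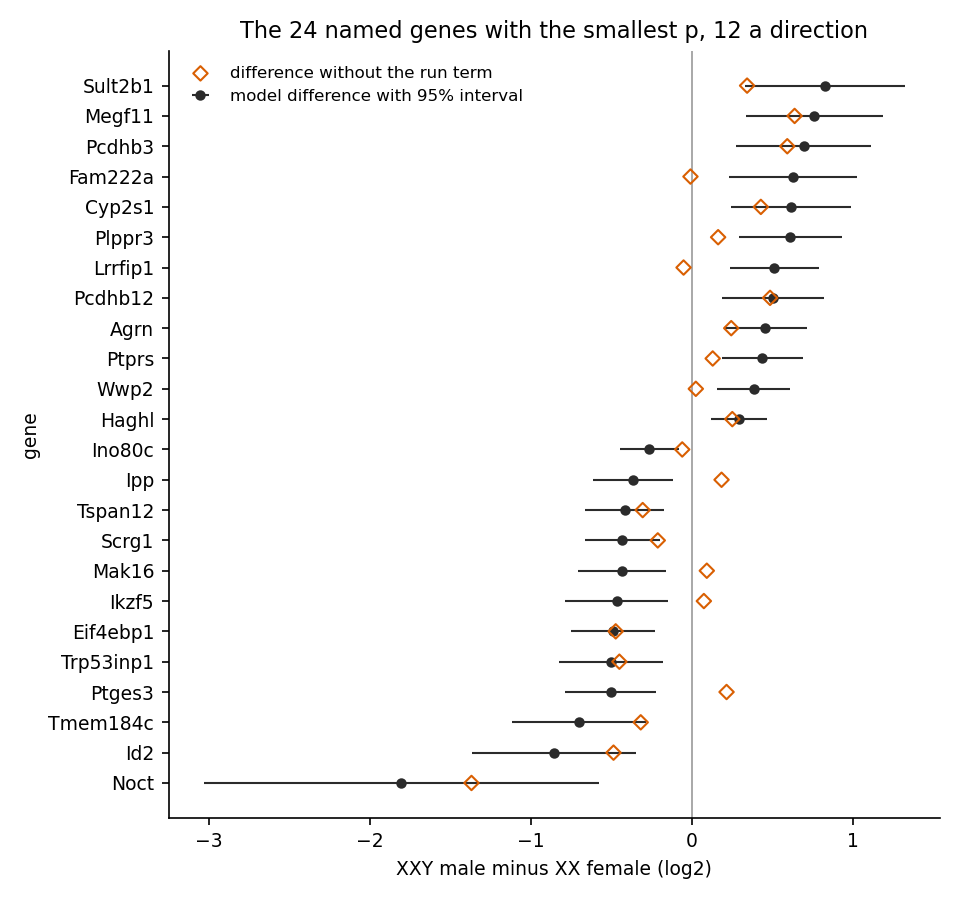
Model difference, XXY males minus XX females in log2 units, for the 24 named genes with the smallest p, 12 in each direction, drawn as points with 95% intervals, and the difference without the run term drawn as open diamonds. For 18 of the 24 genes the point and the diamond lie on the same side of 0.

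Steroid-related genes were described as lists. Of 20 measured genes that respond to glucocorticoids or androgens 3 had a positive difference, and the median was -0.40 log2 units, beside 0.01 over all features. None passed over all features, and 6 had a negative difference at an unadjusted p below 0.05, beside 167 of 9455 features (1.77%). The list was chosen with earlier results of these data known, so these counts are a description and not a test. Sgk1, a serum- and glucocorticoid-regulated kinase, lay at 11.80, 12.16 and 12.39 in XXY males, against 11.79, 12.64 and 13.48 in XX females. All 9 XXY males were below the XX female mean, with a difference of -0.58 (SE 0.26). The same held for Nfkbia, which encodes the NF-kappaB inhibitor, at -0.58 (SE 0.25), and for Ddit4, an inhibitor of mTORC1, at -0.54 (SE 0.23). Cdkn1a, the cell cycle inhibitor p21, gave -0.97 (SE 0.41), Map3k6 -0.57 and the metallothionein gene Mt2 -0.53. Other kept probes of Cdkn1a gave -0.54 (SE 0.42) and -0.47 (SE 0.40), neither at an unadjusted p below 0.05. Fkbp5, a co-chaperone that limits glucocorticoid receptor activity, gave -0.16 (SE 0.45), with -1.05 in batch 1 and 0.17 in batch 2. The mean of the list per animal was 8.79, 9.09 and 9.20 in XXY males, against 8.92, 9.36 and 10.22 in XX females, so the ranges overlapped and the high values were those of XX females. The median was -0.57 in batch 1 and -0.15 in batch 2, -0.43 without the run term and -0.44 without the arrays that stand apart. Blood markers lay on the same side, with 0 of 4 positive and a median of -0.43, although without the run term 2 of 4 were positive with a median of -0.03. So did Fos, an immediate early gene, at -0.80 (SE 0.37, unadjusted p = 0.0354). Their part in these values was not tested.

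Of the 14 immediate early genes, which neurons induce with activity, 6 had a positive difference and the median was -0.04, or -0.20 without the arrays that stand apart. Fos lay at 5.83, 6.70 and 8.00 in XXY males, against 6.52, 7.34 and 8.74 in XX females. Egr2 gave -0.70 (SE 0.40), the phosphatase gene Dusp1 -0.30 (SE 0.18) and Ier3 0.30 (SE 0.17). Heat shock and stress genes had 3 of 8 positive and a median of -0.08, with the mitochondrial chaperonin gene Hspe1 at -0.57 (SE 0.40). Among 7 genes of sex steroid reception and synthesis 3 were positive, with a median of -0.12, and 5 without the run term, with a median of 0.08. Gper1, a membrane oestrogen receptor, gave 0.33 (SE 0.21), and Ncoa1, a coactivator of nuclear receptors, gave 0.40 (SE 0.30). Hsd17b10, a hydroxysteroid dehydrogenase, gave -0.32 (SE 0.27), and Tspo, a mitochondrial outer membrane protein, gave -0.27 (SE 0.30). The oestrogen receptor gene Esr1 was not among the features tested.

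No projection neuron gene passed the threshold. In bulk tissue, fewer cells of a type and less RNA per cell cannot be told apart. Of 7 direct-pathway genes 1 had a positive difference, with a median of -0.08, but the batches had opposite signs, with 5 of 7 positive in batch 1 (median 0.25) and 0 of 7 in batch 2 (median -0.28). Drd1 lay at 10.65, 10.98 and 11.41 in XXY males, against 10.49, 11.24 and 12.50 in XX females, and the ranges overlapped. Its difference was -0.09 (SE 0.25, 95% interval -0.61 to 0.43). Tac1, the substance P precursor, gave -0.08 (SE 0.20), the transcription factor gene Isl1 -0.13 (SE 0.13) and the serine transporter gene Sfxn1 -0.23 (SE 0.18). Pdyn, the dynorphin precursor, gave -0.002 (SE 0.24), and another of its probes had the opposite sign. Of 5 indirect-pathway genes 3 were positive, with a median of 0.11, and 0 with the 18 animals fitted alone, with a median of -0.29. Drd2 lay at 9.10, 10.34 and 10.62 in XXY males, against 9.05, 10.63 and 11.28 in XX females, and gave 0.19 (SE 0.34, 95% interval -0.50 to 0.89). Cartpt, a neuropeptide precursor, gave -0.19 (SE 0.41), and Penk was not among the features tested.

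Of the 17 genes shared by both projection neuron types 12 were positive, with a median of 0.10. This direction turned in other fits, with 8 of 17 positive without the run term (median -0.02), 5 in batch 1 (median -0.10) and 3 with the 18 animals fitted alone (median -0.17). Ppp1r1b, which encodes DARPP-32, the phosphatase inhibitor that integrates dopamine signals, gave 0.20 (SE 0.28), and another of its probes gave -0.08. Rgs9, a regulator of G protein signalling in striatum, gave 0.26 (SE 0.25), and the phosphatase gene Ptpn5 gave -0.29 (SE 0.21). The 16 genes of dopamine receptor signalling had 10 positive differences and a median of 0.05, with Rgs4 at -0.28 (SE 0.15). Here too 6 of 16 were positive without the run term (median -0.03) and 4 with the 18 animals fitted alone (median -0.13). All 6 genes of dopamine and monoamine metabolism were negative, with a median of -0.17, whereas 2 of 6 were positive without the run term (median -0.05) and 3 of 6 in batch 1. Th, the rate-limiting enzyme of dopamine synthesis, gave -0.13 (SE 0.24), and Maob, a monoamine oxidase, gave -0.21 (SE 0.25). Neuropeptides and their receptors had 5 of 16 positive and a median of -0.03, against 11 of 16 and 0.16 without the run term. Cholinergic interneuron markers had 7 of 8 positive and a median of 0.19, but 3 of 8 in batch 1 and 4 of 8 with the 18 animals fitted alone, each with a median of -0.06. Values of single genes were 0.28 (SE 0.23) for Ache, acetylcholinesterase, and 0.20 (SE 0.29) for Slc18a3, the vesicular acetylcholine transporter. GABAergic interneuron markers had 4 of 9 positive and a median of -0.02, and 5 of 9 without the run term with a median of 0.08.

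Markers of neighbouring tissue and of other cell types ranged widely within each group. Ttr, the choroid plexus transthyretin, lay at 11.66, 12.17 and 14.68 in XXY males, against 11.84, 12.48 and 14.75 in XX females. Otx2, a transcription factor of choroid plexus, lay at 5.56, 5.82 and 7.81 in XXY males, against 5.32, 6.03 and 8.01 in XX females. Both spanned over 2 log2 units in each group, and gave 0.18 (SE 0.69) and -0.18 (SE 0.56). The 10 choroid plexus markers had 5 positive differences and a median of -0.05, but 0 of 10 were positive in batch 1 (median -0.73) and 9 of 10 in batch 2 (median 0.82). Without the arrays that stand apart 8 of 10 were positive, with a median of 0.14. The 11 thalamic and septal markers were all positive, with a median of 0.52. Without the run term 5 of 11 were positive with a median of -0.06, so that direction is not secure. The transcription factor gene Gbx2 gave 0.62 (SE 0.39), Tcf7l2, a thalamic transcription factor, 0.60 (SE 0.51), and Ntng1, a netrin-G adhesion protein, 0.52 (SE 0.48). Cortical neuron markers had 2 of 6 positive, with a median of -0.07, and 3 of 6 in batch 2, with a median of 0.09.

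Oligodendrocyte markers had 10 of 12 positive and a median of 0.15, with 4 of 12 positive without the run term. Astrocyte markers had 7 of 12 positive and a median of 0.04, but 0 of 12 in batch 1 (median -0.43) and 5 of 12 without the arrays that stand apart (median -0.03). Gfap, the astrocyte filament protein, gave -0.37 (SE 0.23). Microglial and immune markers had 6 of 12 positive and a median of 0.02. Endothelial markers had 5 of 8 positive and a median of 0.36, or 3 of 8 and -0.03 with the 18 animals fitted alone, and mural and meningeal markers had 5 of 8 positive and a median of 0.26, or 3 of 8 and -0.22 in batch 1. Acta2, smooth muscle actin, lay at a mean of 9.86 ± 0.47 in XXY males and 9.07 ± 0.67 in XX females (SD, n = 9 each). All 9 XXY males were above the XX female mean, and the difference was 0.69 (SE 0.29, unadjusted p from limma's test 0.0255). Vtn, vitronectin, gave 0.57 (SE 0.25, unadjusted p = 0.0259). Neither passed over all features.

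Housekeeping lists had many small negative differences. Of 80 subunits of oxidative phosphorylation 19 were positive, with a median of -0.11, and of 57 cytosolic ribosomal proteins 12 were positive, with a median of -0.10. Batch 1 gave the other sign for most members, 59 of 80 and 46 of 57 positive, whereas batch 2 gave 17 of 80 and 8 of 57. XXY male replicate 5, in batch 1, and XX female replicate 7, in batch 2, had the highest means of their groups in both lists. Without these arrays, over both batches, 14 of 80 and 9 of 57 were positive, each list with a median of -0.09. The part of these arrays in the opposite signs of the batches was not tested. Cox7a2, a cytochrome c oxidase subunit, gave -0.63 (SE 0.33) in the model and 0.01 without the run term. Ndufb2, a complex I subunit, gave -0.76 (SE 0.42), and the ribosomal protein gene Rps2 gave -0.57 (SE 0.33). No member of any of the lists passed over all features.

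**Figure D5:**
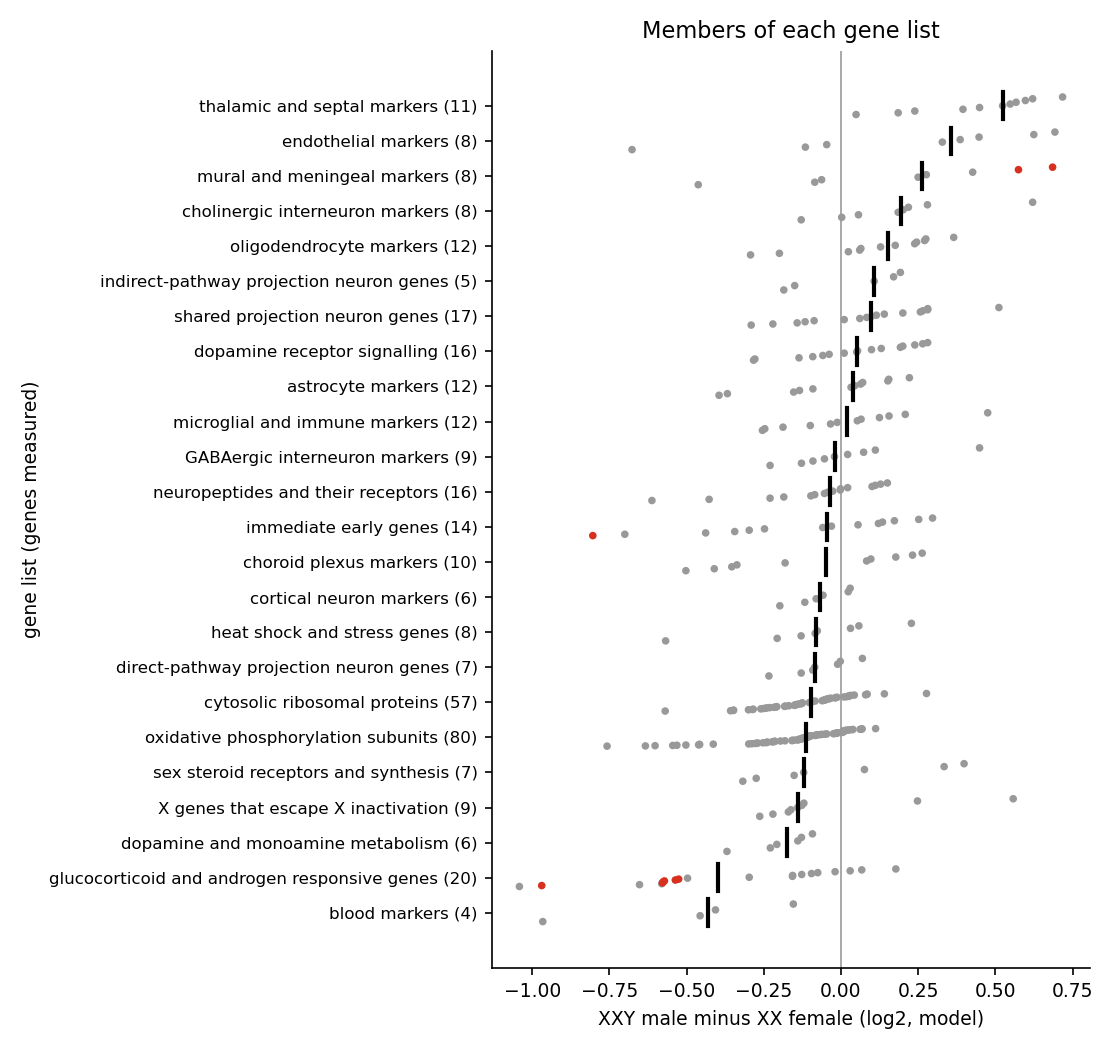
Model difference of every measured member of each gene list, XXY males minus XX females in log2 units, with a bar at the median, red points at an unadjusted p below 0.05 and the number of genes measured beside the list's name. Members of most lists lie on both sides of 0, those of the thalamic and septal list lie above it, and those of the dopamine and monoamine metabolism and blood lists lie below it.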

How the data were processed

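Striatal RNA of 38 animals was hybridised to bead arrays. The authors deposited linear bead signal intensity with detection p-values and bead numbers as signal columns, per the file headers, with no normalization between arrays, for 37 animals. Columns with both letters hold fractional bead numbers. The authors also deposited log2 values, used as an alternative without XX males. The submitters' processing notes name limma; no source used here gives its steps. Signals were corrected by normexp on negative controls inferred from detection p, quantile-normalized and log2-transformed after adding 16 (neqc, limma 3.58.1, R 4.3.3). Probes detected at p below 0.01 in at least 8 animals were kept. The platform annotation names 11458 probes, of which 11454 matched RefSeq (GRCm38.p6). For each named gene the brightest probe was used.

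All 37 arrays were fitted together with lmFit and eBayes, with group, labelled batch and share of letter b, adjusting p over 9455 features by Benjamini-Hochberg, with a threshold of 0.05. The script was tested on simulated data. Named features were every feature past the threshold, all measured Y-linked, escape and pseudoautosomal genes, the 12 named genes of smallest p in each direction, at most 4 genes of smallest p from each of the other lists, and a fixed set of striatal, steroid and choroid genes. Map3k6 and Mt2 were named after their values were seen. Members and lists were chosen with earlier results of these data known. A probe undetected in a whole group is given as "at least". Array number and signal over background limit precision. Alternatives covered background correction, normalization, filters, run and batch terms, array weights, animals left out and the authors' log2 values.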

Additional observations from a re-analysis of the deposited data

Results flagged for a closer look

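For 22 of 266 groups of 9 animals, 1 animal lay far from the others, with a gap to its nearest neighbour that took more of the group's range than Dixon's critical value allows. Chance flags about 1 in 20 groups. The share of the range is given for each. XXY male replicate 5 and XX female replicate 7, which stand apart over all features, account for 6 each. XXY male replicate 5 was the highest of its group for ILMN_2899599, at a log2 of 11.5 (0.61 of the range). It was also the far animal for the early response gene Ier3 (0.567), the astrocyte glutamate transporter Slc1a3 (0.611), the immune cell gene Laptm5 (0.599), the endothelial gene Pecam1 (0.597) and Ppp1r1b (0.498). XX female replicate 7 was the far animal for ILMN_1241001 (0.532), at 4.70 and still undetected. It was so too for Slc18a3 (0.59), Maob (0.542), the microglial receptor Trem2 (0.501), Rpl3l (0.731) and Fkbp5 (0.541).

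XX female replicate 9 was the far animal for 5 genes: Kdm6a (0.608, at a log2 of 10.15), Drd1 (0.514, at 12.5), the pterin-recycling enzyme Qdpr (0.596), Mef2c (0.647) and the myelin gene Mobp (0.638). XXY male replicate 9 was far for Cartpt (0.535) and Fezf2 (0.598). Single animals were far for Egr2 (XXY male replicate 4, 0.524), Mef2c (XXY male replicate 1, 0.59) and Noct (XX female replicate 1, 0.668).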

How the results depend on the processing

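The count of 4 probes past the threshold was between 3 and 6 in most alternatives, and 3 to 4 when each animal was left out in turn. It was 2 with the 18 arrays normalized and fitted alone, 1 with a stricter filter on dim probes, 2 within labelled batch 1, 2 within labelled batch 2, 10 with array weights and 1 with the authors' log2 values, in which ILMN_1241001 and ILMN_2993661 are not listed. Within labelled batch 1 without the array that stands apart, an alternative chosen after seeing the data, it was 1. The stricter filter kept only probes detected in all 18 animals, so of the 4 probes ILMN_2899599 alone was tested there. Without the run term 6 features passed, 3 higher and 3 lower. ILMN_1241001 passed in all 36 alternatives that hold it, at 0.92 to 3.01. ILMN_2899599 lost its call in 2 of 38, with the 18 arrays normalized alone (adjusted p = 0.0548) and within batch 1 without the array that stands apart (3.74, adjusted p = 0.073). ILMN_2993661 lost its call only within batches, in 3 of 36, at 0.50 to 1.67. ILMN_3159435 lost its call in 17 of 37, at 0.59 to 1.69 over the alternatives. Array weights brought Agrn (adjusted p = 0.0168), Eif4ebp1 (adjusted p = 0.03) and Scrg1 (adjusted p = 0.00958) past the threshold. No feature that passed the threshold changed sign. The cause of these shifts was not tested. Of the 133 named features 37 changed sign without the run term, 46 within batch 1 and 11 within batch 2, and of 24 list medians 8, 13 and 3 did. Features at an unadjusted p below 0.05 numbered 387 in all and 1495 without XXY male replicate 5. Residuals of animals with the same replicate number correlated at -0.643 to 0.421, and 1 of 9 pairs was over 0.1. The main component of the residuals held 45.3% of their variance, so these correlations cannot settle whether the numbers pair the animals. With a replicate block 3 probes passed, and ILMN_3159435 gave 1.09 (adjusted p = 0.751). Dim probes are compressed by the offset, and detection in merged arrays may not match that in single arrays.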

Other observations

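The pair of arrays that stand apart differed from their own groups in the same direction for several gene groups. The mean log2 level of the 80 oxidative phosphorylation subunits was 12.35 in XXY male replicate 5, against 11.54 to 11.98 in the other XXY males. It was 12.39 in XX female replicate 7, against 11.70 to 12.09 in the other XX females. The ribosomal protein genes were likewise the highest of each group in these animals, at 12.90 and 12.87. Genes shared by the projection neuron types were the lowest of each group, at 10.71 in XXY male replicate 5 and 10.75 in XX female replicate 7, against 11.16 to 11.93 and 10.99 to 12.14 in the other animals of those groups. Dopamine receptor signalling genes, at 10.87 and 10.86, and astrocyte markers, at 8.76 and 9.00, were the lowest as well. The main component of the residuals held 45.3% of their variance, with loadings of 0.47 and 0.453 in this pair and -0.32 to 0.121 in the other 16 animals.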
